A study of Mus musculus with 32 samples.

Results

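The transcripts described here were those that mouse clear cell sarcoma and mouse synovial sarcoma held at a like, raised level, and that mouse osteosarcoma and control tissue did not. They were chosen on the median RPKM (reads per kilobase of transcript and per M reads of the library) of each of 4 classes. The lower of the clear cell sarcoma and synovial sarcoma medians had to reach 5 RPKM. With 1 RPKM added to each median, it had to be at least 3 times the osteosarcoma median and at least 3 times the control median, and the higher of the 2 tumour medians had to stay under 4 times the lower. Of 55419 transcripts in the deposited table, 272 met these conditions (0.491%). The medians of all 4 classes therefore chose the members, so levels in these classes are given below as a description with no test.

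Clear cell sarcoma and synovial sarcoma are soft tissue tumours that in patients each carry a fusion gene made by a chromosome translocation. In clear cell sarcoma the fusion joins EWSR1 to ATF1, a transcription factor of the CREB family that binds cAMP response elements in promoters, and the fusion protein activates genes at such elements. In synovial sarcoma it joins SS18, a subunit of the SWI/SNF (BAF) chromatin remodelling complex, to an SSX gene, and the fusion protein changes that complex and acts at genes otherwise silenced by Polycomb. Osteosarcoma, a tumour that forms bone matrix, has no such defining fusion.

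RNA was sequenced from 32 libraries: 13 clear cell sarcomas, 7 osteosarcomas, 6 synovial sarcomas and 6 controls. All clear cell sarcoma titles contain EA1, which the labels do not spell out. Cre, an enzyme that recombines loxP sites, had started these tumours and came from 4 sources: Rosa26CreER in 5 libraries, TATCre in 4, Prx1CreERT2 in 2 and Bmi1IRESCreERT2 in 2. Rosa26 is active in nearly all cells, Prx1 in limb mesenchyme and Bmi1 in many stem and progenitor cells. CreER and CreERT2 act only with tamoxifen, and TATCre is a protein that enters the cells it is given to. The osteosarcoma titles name Col1Cre (4 libraries; Col1 marks bone-forming cells) or Prx1Cre (3 libraries). The synovial sarcomas were titled Myf5-SSM2/PLUC, where Myf5 is a gene of muscle progenitors and the other parts are not spelled out. Of the controls, 5 were titled Chest and 1 Bone, with no tissue named. The labels give no strain, age, animal or date. Tumour class, genotype, Cre and site cannot be told apart between the classes, and in bulk tissue fewer cells of a type and less RNA per cell cannot be told apart.

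The deposited values were whole multiples of the value of 1 read, which gave a depth of 8.11 to 13.1 M reads per library and a whole length for each of the 272 members. How these lengths were defined is not stated in the labels or files at hand. All transcripts carry UCSC identifiers, which the files do not pair with gene names, and 0 of the 272 matched the gene tables at hand. Gene functions, marker genes and sequences of the members are therefore not described, and whether the tumours express the markers of their class was not checked. Members were not grouped by locus, so several of the 272 may belong to the same gene. Identifiers are printed for 4 members. Libraries sharing a title number (N37 in 3 synovial sarcomas, N39 in 2, and N123 in 2 TATCre tumours) are not stated to come from separate animals, so p-values below reflect differences among libraries and may include technical variation.

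The same conditions set on the other pairs of tumours gave fewer transcripts. Clear cell sarcoma and osteosarcoma shared 55 against the remaining classes, and osteosarcoma and synovial sarcoma shared 102. The order of these 3 counts depended on the scaling of the libraries in its lower part: with median-ratio scaling the counts were 208, 62 and 74, and with quantile normalization 195, 75 and 66. Near the limits of the conditions, the member with the lowest tumour median had 5.02 RPKM, and the nearest transcript outside had 4.96. The smallest ratio to the other classes inside was 3.01 and the largest outside 2.98. The largest ratio between the 2 tumour medians inside was 3.84 and the smallest outside 4.06. There were 112 transcripts that missed only the level condition and 24 that missed only the condition on likeness between the tumours. The ratio to the other classes alone was missed by 7604.

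Most members were short. Their median length was 202.5 bases, from 2 to 9078, whereas the median was 1106 bases over the transcripts with at least 1 RPKM in at least 6 of the 32 libraries (15230, a filter that all 272 members passed). Members under 500 bases numbered 166 (61.0%), and 80 members (29.4%) were under 100 bases. Of the filtered transcripts under 50 bases, 5.04% were members, and from 50 to under 100 bases 4.95%. The share fell to 0.508% from 500 to under 1000 bases and was 1.36% at 2000 bases or more. The members of clear cell sarcoma and osteosarcoma were less often short (22 of 55 under 500 bases) and those of osteosarcoma and synovial sarcoma more often (75 of 102), with no test of these shares. Because a read on a short transcript is worth many RPKM, the members are described below in a short set (166 transcripts under 500 bases, median 105) and a long set (106 transcripts of 606 bases or more, median 2136.5). This division was chosen after the lengths had been seen.

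**Figure D1:**
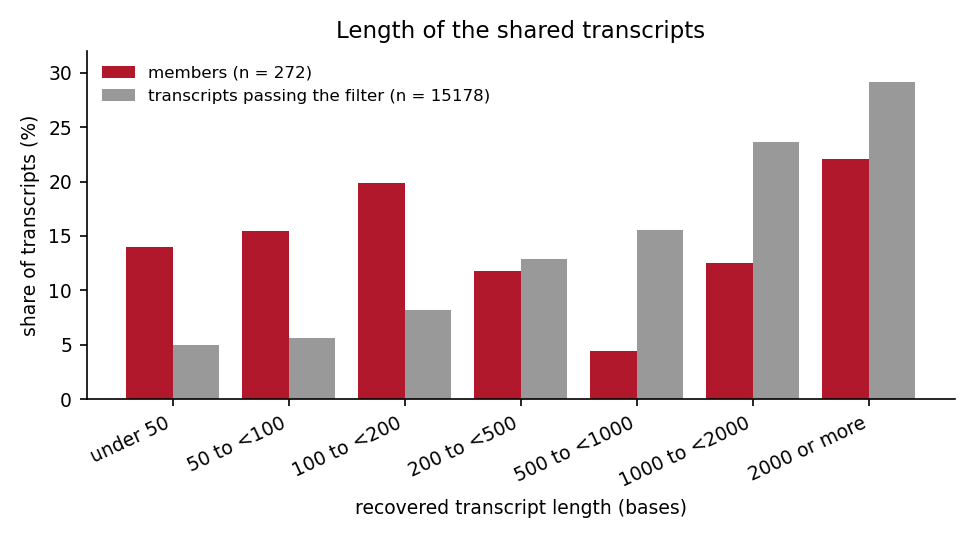
Share of transcripts (%, vertical axis) in each range of recovered length in bases (horizontal axis), for the 272 members and for the 15178 filtered transcripts with a recovered length. Members are the larger share in the 3 ranges under 200 bases and the smaller share in each range above that.

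The long set held moderately expressed transcripts with many reads behind each value. Over the 106 long members, the median of the class medians was 20.5 RPKM in clear cell sarcoma and 23.5 in synovial sarcoma, against 2.42 in osteosarcoma and 1.74 in the controls. The lower of the 2 tumour medians rested on a median of 413 reads per library, with quartiles of 183 and 821.25. Most long members were thus detected in the other classes too, at a lower level. The osteosarcoma median was 0 for only 11 of the 106 and the control median for 2, whereas the osteosarcoma median was 5 RPKM or more for 30 and the control median for 19. In the 2 tumours, 48 long members lay between 10 and 30 RPKM in synovial sarcoma and 42 in clear cell sarcoma, and 10 and 11 reached 100 RPKM.

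The short set reached like RPKM values from few reads. The median of the class medians was 17.5 RPKM in clear cell sarcoma and 15.6 in synovial sarcoma, and it was 0 in both other classes. The lower tumour median rested on a median of 13.5 reads (quartiles 10 and 22), and on 20 reads or more for 50 of the 166. For 105 short members both the osteosarcoma and the control median were listed at 0, against 2 long members. Of all filtered transcripts, 15.5% had an osteosarcoma median of 0 and 12.7% a control median of 0. In the tumours that chose them, 16.3% of the 3154 single values of short members were listed at 0 and 1.62% stood at 1 to 4 reads, whereas 30.8% stood at 10 to 19. In osteosarcoma and control libraries 65.8% of 2158 values were listed at 0 and 5.70% held 1 to 4 reads. For this reason a zero is reported below as listed at 0.

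Separation, the lower tumour median over the higher of the other 2 medians with 1 RPKM added to each, followed that division. It had a median of 4.46 in the long set and 9.90 in the short set. Of the 23 members with a separation of 30 or more, 22 were short and 1 was long, and of the 59 between 3 and 4, 19 were short and 40 long. The highest value, 651, belonged to a transcript of 3 bases with 18 reads at the median in clear cell sarcoma and 20 in synovial sarcoma, and the highest in the long set was 30.03.

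**Figure D2:**
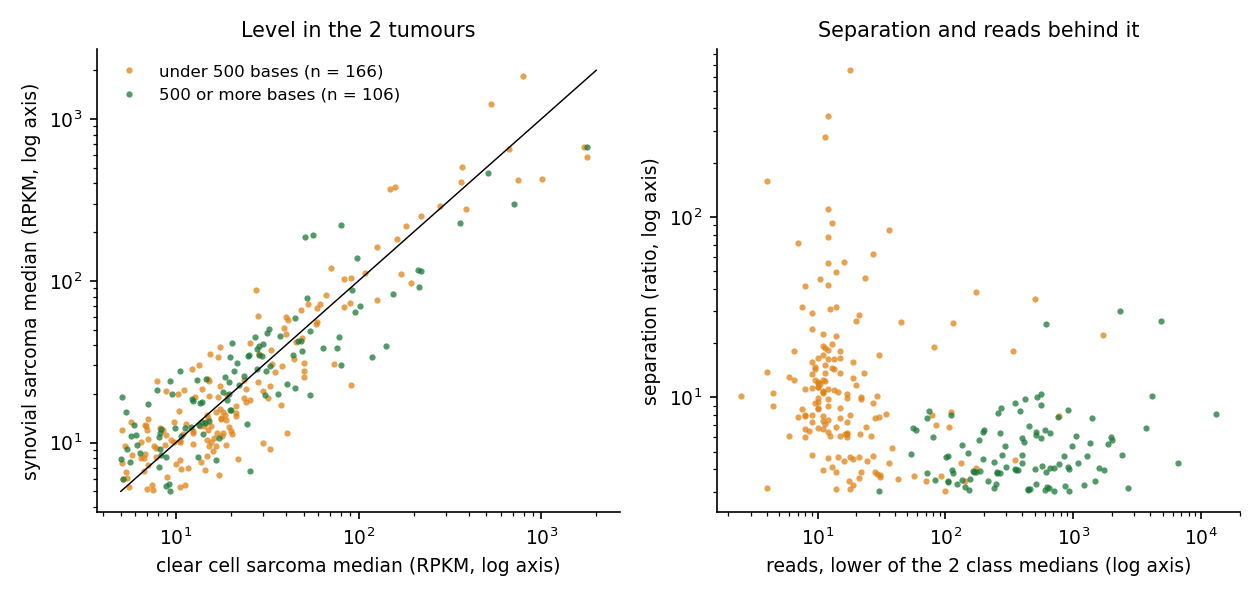
Left, the median RPKM of each member in synovial sarcoma (vertical, log axis) against clear cell sarcoma (horizontal, log axis), with a line at equal values and members under 500 bases apart from longer ones. Right, separation (vertical, log axis) against the reads behind the lower of the 2 tumour medians (horizontal, log axis). Most members with a separation of 30 or more are short and stand on few reads.

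The 2 tumours held the members at close levels, as the conditions required. Clear cell sarcoma had the higher median for 134 members and synovial sarcoma for 138, and the medians lay within 2-fold of each other for 228. Between the 2 classes without the raised level, the osteosarcoma median was the higher for 76 members and the control median for 89, and both were 0 for 107.

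Levels varied within each class, and more in clear cell sarcoma than in synovial sarcoma for the long set. The SD of log2(RPKM + 1) over libraries had a median over long members of 0.99 in clear cell sarcoma, 0.66 in synovial sarcoma, 0.96 in osteosarcoma and 0.39 in the controls. Over short members it was 1.71, 1.49, 1.50 and 1.38 in the same order. The median over all filtered transcripts was 0.64 in clear cell sarcoma, 0.50 in synovial sarcoma, 0.77 in osteosarcoma and 0.45 in the controls. Over all members together the median was 1.41, 0.79, 1.22 and 0.86 in that order of classes, above the filtered transcripts in each. Over filtered transcripts of 500 bases or more it was 0.56, 0.44, 0.70 and 0.38, below the long set in each class. Over filtered transcripts under 500 bases it was 1.10, 0.73, 1.03 and 0.76, below the short set in each class. The ratio of the highest to the lowest clear cell sarcoma library had a median of 3.20 on the log2 scale for long members, against 1.73 in synovial sarcoma. These are descriptions over 13 and 6 libraries, and a range widens with the number of libraries.

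Seen library by library, the long set kept all 19 tumour libraries of the 2 classes above all 13 others. The mean log2(RPKM + 1) over the 106 long members ran from 3.95 to 4.99 in clear cell sarcoma (median 4.77) and from 4.10 to 5.27 in synovial sarcoma (median 4.70). It ran from 1.49 to 2.93 in osteosarcoma (median 1.92) and from 1.33 to 2.02 in the controls (median 1.63). The short set did not separate the libraries in that way. Its mean ran from 1.47 to 5.05 in clear cell sarcoma (median 4.48), from 2.95 to 5.09 in synovial sarcoma (median 4.20), from 0.66 to 2.09 in osteosarcoma (median 1.16) and from 0.42 to 2.48 in the controls (median 0.98). The TATCre tumour titled N123-Rleg, at 1.47, fell among the osteosarcomas and below the controls Chest4 and Chest5. The members took 1.84% to 3.42% of the reads of a clear cell sarcoma library and 1.15% to 2.26% of a synovial sarcoma library. In osteosarcoma the share was 0.147% to 1.23%, and in the controls 0.105% to 0.187%.

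**Figure D3:**
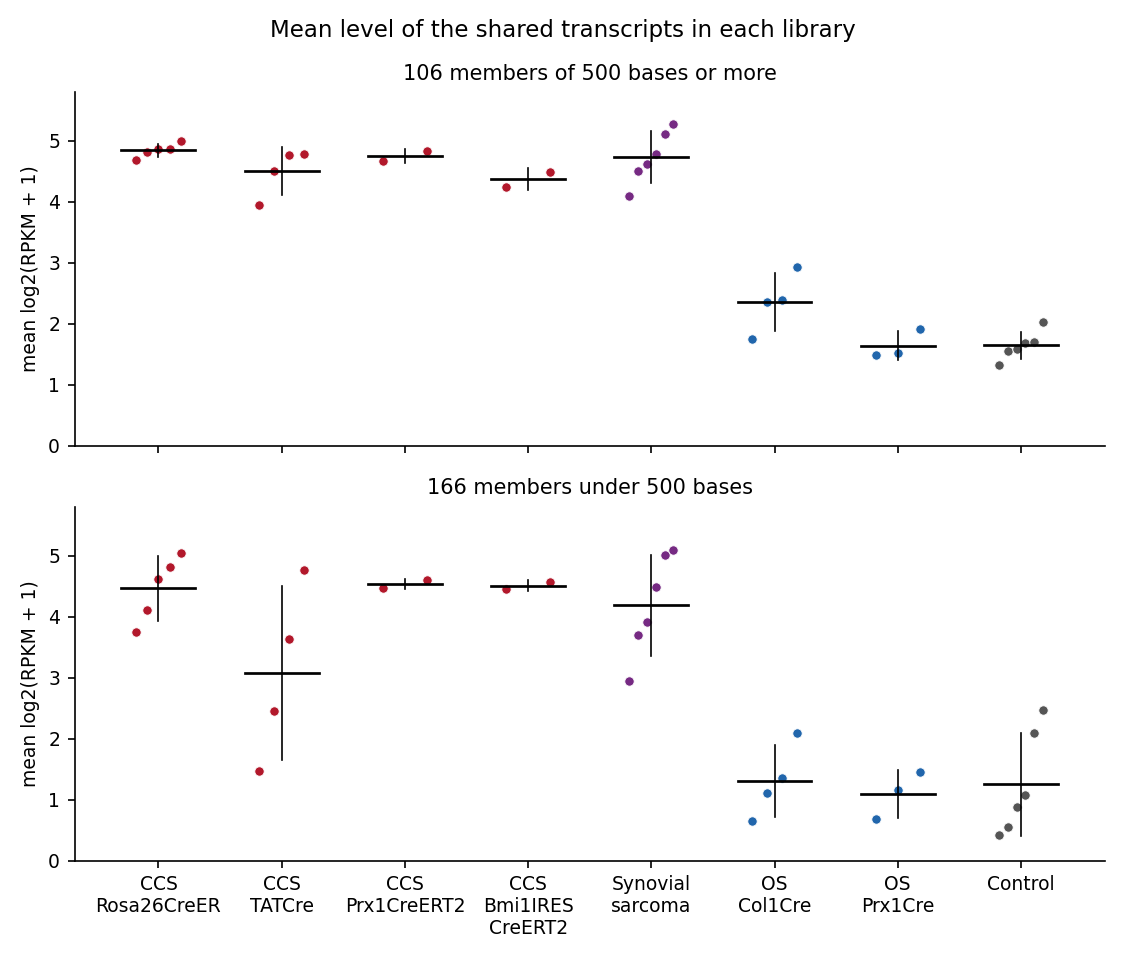
Mean log2(RPKM + 1) over the 106 long members (top) and the 166 short members (bottom) in each library, by group. Each point is a library, the horizontal bar is the group mean and the vertical line 1 SD on either side; OS is osteosarcoma and CCS clear cell sarcoma. In the long set the 2 tumour classes do not overlap the others, whereas in the short set a TATCre library lies among the osteosarcomas.

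A few libraries accounted for many of the zeros in short members. Of the 166, the tumour N123-Rleg had 48 above 0, the TATCre tumour N179-Larm 92, the synovial sarcoma N37-8 99, Rosa26CreER number 4 119 and the synovial sarcoma N37-4 120, and the other 14 tumour libraries had 140 to 163. Among the other classes, the controls Chest4 and Chest5 had 117 each and the osteosarcoma Col1Cre 31 had 97, whereas the remaining 10 libraries had 22 to 60. Over other filtered transcripts under 500 bases, 57.02% were above 0 in N123-Rleg and 66.2% in N179-Larm, a share that ran from 61.9% to 81.4% in the other 11 clear cell sarcomas. In the control Chest3, which had 47 short members above 0, that share was 58.5%, and in Chest4 and Chest5 it was 78.0% and 75.4%. The part of these differences between libraries in the choice of members was not tested beyond leaving out N123-Rleg and N179-Larm together. The same conditions then gave 293 transcripts, 258 of them among the 272, with 104 of 500 bases or more.

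For 27 members every clear cell sarcoma and synovial sarcoma library lay above every osteosarcoma and control library, 8 of them short and 19 long (0.394% of filtered transcripts did so). Above 0 in all 19 tumour libraries were 128 members, 103 of them long, and 70 had at least 5 RPKM in each of the 19. Only 3 members, all short, were listed at 0 in all 13 osteosarcoma and control libraries. Single libraries crossed over for many members. The tumour N123-Rleg was at or below the higher of the osteosarcoma and control medians for 137 members, 14 of them long. The osteosarcoma Col1Cre 22 reached the lower tumour median for 13 long members, more than any other library without the raised level, of which the rest did so for 0 to 6.

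Within clear cell sarcoma the lowest value of a long member was most often in N123-Rleg, for 38 of the 106. Within synovial sarcoma it was in the library titled N44 for 57, and the highest was in N37-7 for 49 and in N39-9 for 31. The 3 libraries titled N37 did not stand together: the mean over long members put N37-7 above N37-8 and N37-4, and N37-7 had 162 short members above 0 where N37-8 had 99.

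The 2 members of at least 100 bases with the highest separation show both kinds of transcript. The first, uc007pav.2, has a length of 134 bases. In clear cell sarcoma it had 84.2 RPKM in the lowest library, 750.1 at the median and 2022 in the highest. In synovial sarcoma these values were 242, 418 and 648. In osteosarcoma it was listed at 0 in 4 of 7 libraries and reached 5.83, which was 9 reads. In the controls it was listed at 0 in Bone3 and Chest1 and had 8.38 in Chest2, 13.6 in Chest4, 18.7 in Chest5 and 35.8 in Chest3. Every tumour library of the 2 classes lay above every other library, with 84.2 against 35.8 at the closest. Unlike most short members it rested on many reads, 130 in its lowest clear cell sarcoma.

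The second, uc007mqv.1, has a length of 5284 bases and gave the highest separation of the long set, 30.03. Its values in clear cell sarcoma were 2.28 RPKM in the lowest library, 52.4 at the median and 670.2 in the highest. In synovial sarcoma they were 23.9, 78.1 and 160. It had 0.548 to 1.804 RPKM in the 7 osteosarcomas, with a median of 0.777, and 0.0907 to 0.261 in the 6 controls, which was 5 to 13 reads. No library of the 2 tumours fell into the range of the others. Clear cell sarcomas differed widely among themselves in this transcript. Rosa26CreER number 5, at 670.2 RPKM (28704 reads), and Bmi1IRESCreERT2 number 2, at 653.4 (37895 reads), stood apart from the other 11, of which the highest had 87.9. The lowest, Prx1CreERT2 number 4, had 99 reads.

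**Figure D4:**
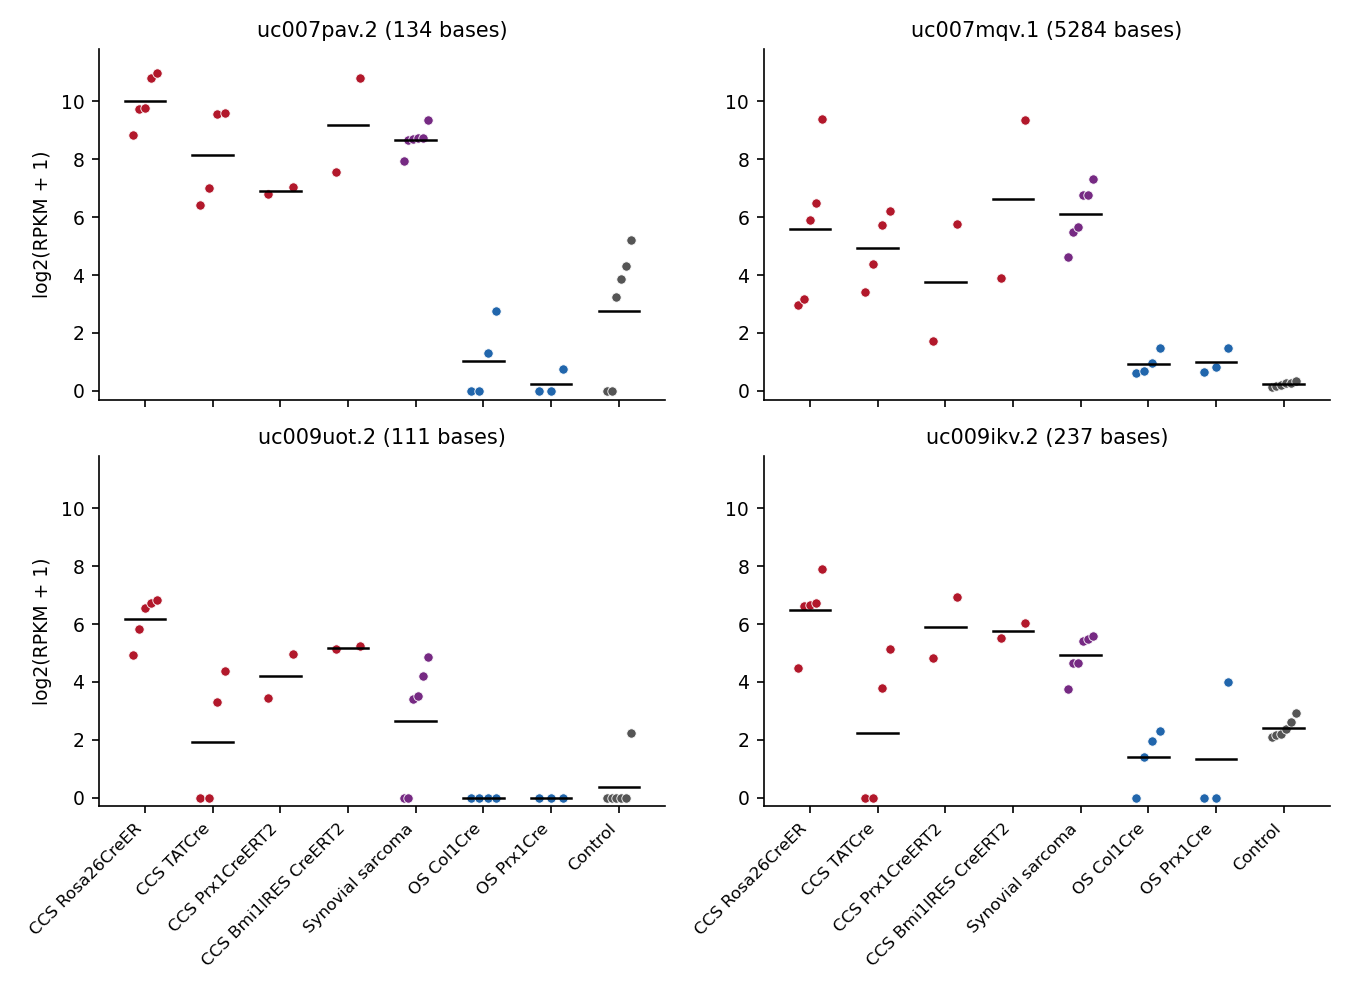
The log2(RPKM + 1) of 4 members (vertical axis) in each of the 32 libraries, by group. Each point is a library and each bar the group mean. The 2 members in the top row have no overlap between tumours of the 2 classes and the other libraries, and the 2 in the bottom row were listed at 0 in 2 of the 4 TATCre tumours each.

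The conditions used no contrast between the Cre that started the clear cell sarcomas, so these groups were tested. They did use the median over all 13 tumours, of which TATCre gave 4. A transcript low in all 4 TATCre tumours could be a member, whereas one raised in those 4 alone could not. The tests between Cre groups are therefore not free of the choice of members. limma was fitted to log2(RPKM + 1) over the 15195 transcripts with at least 1 RPKM in at least 2 of the 13 tumours, all 272 members among them. Differences between the 4 Cre groups passed an adjusted p of 0.05 in the moderated F test for 33 members (12.1%), 16 short and 17 long, against 10.7% of all tested transcripts. The share among all members together was therefore near that of all transcripts. Shares by length are a description, with no test between the sets and no repeat with libraries left out. For long members the share was 16.04%, against 10.09% of tested transcripts of 500 bases or more. For short members it was 9.64%, against 11.59% of tested transcripts under 500 bases. Among the 33, the highest group mean was in Rosa26CreER for 19, in TATCre for 10, in Prx1CreERT2 for 2 and in Bmi1IRESCreERT2 for 2. The lowest was in TATCre for 14, in Bmi1IRESCreERT2 for 9, in Prx1CreERT2 for 8 and in Rosa26CreER for 2. The span between the highest and the lowest group mean among them ran from 0.84 to 5.38 on the log2 scale, with a median of 3.09. The count depended on single libraries of each Cre group: it was 68 without the TATCre tumour N178-Lleg (25%, against 16.5% of all tested), 10 without N123-RLN, 11 without N179-Larm, 11 without Rosa26CreER number 3, and 19 without number 2. Without Prx1CreERT2 number 2 or 4 it was 13 or 12, and without Bmi1IRESCreERT2 number 1 or 2 it was 15 or 19. Apart from the first, these counts were 3.68% to 6.99% of members, where 5.04% to 10.5% of all tested transcripts passed.

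TATCre and Rosa26CreER, the largest groups, were then compared within the same fit. Members more often stood lower in TATCre: 33 passed the limma test as lower (12.1%, against 7.16% of all tested transcripts) and 11 as higher (4.04%, against 5.53%). The choice of members favours the lower direction, as described above. Its part in these shares and differences was not tested. In either direction that made 44 members (16.2%, against 12.7%), of which 27 had also passed the F test. By length, again with no test between the sets, 12.05% of short members passed in either direction. Of tested transcripts under 500 bases 12.01% did. Of long members 22.64% passed, against 13.27% of tested transcripts of 500 bases or more. As lower, 10.84% of short members passed, against 8.35%, and 14.15% of long members, against 6.98%. Of the short members 18 were lower and 2 higher, and of the long members 15 were lower and 9 higher. The 15 long members differed by a log2 difference of -3.88 to -0.84, with a median of -1.67, and the 9 by 0.89 to 5.16, with a median of 1.93. The 18 short ones lay between -5.38 and -1.83. Over all 272 members the median log2 difference was -1.06, against -0.28 over all tested transcripts. It was -0.54 over long members, against -0.21 over tested transcripts of 500 bases or more, and -1.53 over short members, against -0.57.

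The count depended on single libraries of both groups. Of the 166 short members, 118 were listed at 0 in N123-Rleg, 74 in N179-Larm, 26 in N123-RLN and 3 in N178-Lleg. In the 5 Rosa26CreER libraries 4 to 47 were. Whether these zeros account for the calls was not tested. With N123-Rleg and N179-Larm both left out, a choice made after the data were seen, 10 members passed (3.68%, against 2.97% of all tested). The direction then turned to 7 higher and 3 lower. Without N178-Lleg, the TATCre tumour with 163 short members above 0, 93 passed (34.2%, against 21.4% of all tested), 10 higher and 83 lower. The count was 29 without N123-Rleg, 14 without N179-Larm and 21 without N123-RLN, and 23, 19 and 23 without Rosa26CreER number 2, 3 and 4. These 6 counts were 5.15% to 10.7% of members, where 4.84% to 7.65% of all tested transcripts passed. A lower level of the members across all 4 TATCre tumours is thus not shown. The share of recovered reads in short members was 0.279% to 0.422% in the 4 TATCre libraries and 0.101% to 0.225% in the 5 Rosa26CreER libraries. A single member of 114 bases, singled out after its values were seen, carried 0.234% to 0.377% in the TATCre libraries and 0.00425% to 0.0212% in the Rosa26CreER libraries. Without it the share was 0.0242% to 0.114% in TATCre and 0.0972% to 0.204% in Rosa26CreER, and the ranges overlapped.

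**Figure D5:**
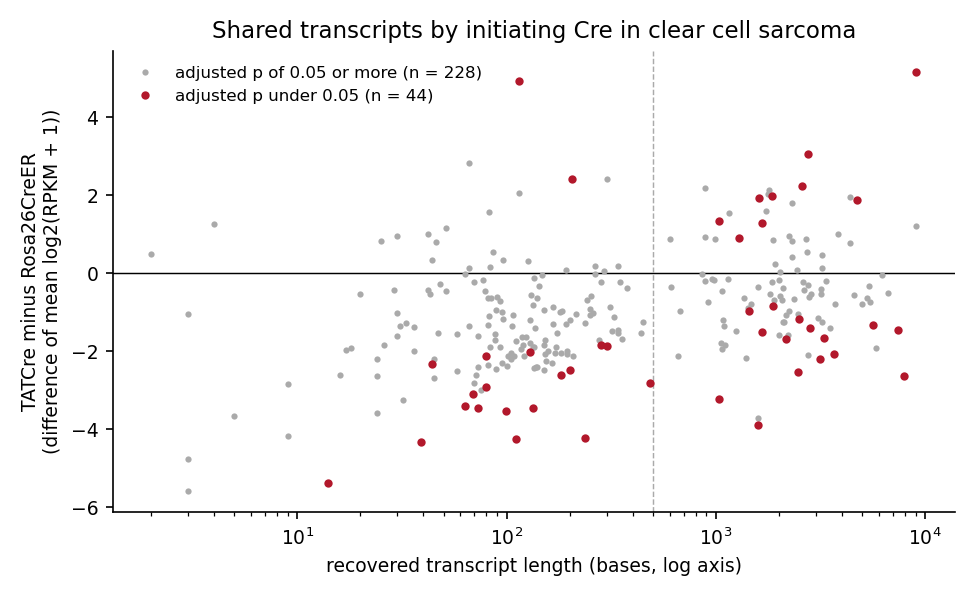
Difference of mean log2(RPKM + 1) between TATCre and Rosa26CreER tumours (vertical axis) against recovered length in bases (horizontal, log axis) for the 272 members, with the 44 that passed the limma test in red. The dashed line marks 500 bases; 143 of the 166 shorter members and 73 of the 106 longer ones lie below 0.

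Of members with at least 100 bases, uc009uot.2 and uc009ikv.2 had the most negative differences among those that passed. The first, of 111 bases, had 92.6, 29.8, 103.8, 111.6 and 55.6 RPKM in Rosa26CreER numbers 1 to 5. Among the TATCre tumours it was listed at 0 in N123-RLN and N123-Rleg and had 8.85 in N179-Larm and 19.7 in N178-Lleg, or 9 and 24 reads. The groups did not overlap. The log2 difference was -4.25 (SE 0.88, limma adjusted p = 0.0140, and 0.0429 in the F test over 4 groups). Without any single clear cell sarcoma the limma adjusted p ran from 0.00302 to 0.0396. Both TATCre libraries listed at 0 share the title number N123, and no fit left them out together. Both Bmi1IRESCreERT2 tumours lay within the Rosa26CreER range, at 36.4 and 34.5 RPKM. In Prx1CreERT2 it had 29.9 and 9.85, the second below that range. It was listed at 0 in all 7 osteosarcomas and in 5 of 6 controls, with 3.74 in Chest4. Synovial sarcomas had 0 to 27.9 RPKM with a median of 10.02, and were listed at 0 in N37-4 and N37-8.

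The second, uc009ikv.2, of 237 bases, had 99.7, 104.6, 97.6, 237 and 21.3 RPKM in Rosa26CreER numbers 1 to 5. In TATCre it was listed at 0 in N123-RLN and N179-Larm and had 12.8 in N123-Rleg and 34.6 in N178-Lleg, so that the groups overlapped. The log2 difference was -4.24 (SE 1.09, limma adjusted p = 0.0313), and the F test over 4 groups gave an adjusted p of 0.0777. The call was lost in limma when Rosa26CreER number 2 (adjusted p = 0.0627), number 3 (0.0651) or number 4 (0.0676) or the TATCre tumour N123-RLN (0.0797) or N179-Larm (0.0895) was left out. The transcript had 12.5 to 46.9 RPKM in synovial sarcoma, 3.24 to 6.64 in the controls, and 0 to 14.9 in osteosarcoma.

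For the pair with the highest separation the same contrast did not pass. The log2 difference between TATCre and Rosa26CreER was -1.89 (SE 0.83, limma adjusted p = 0.137) for uc007pav.2. For uc007mqv.1 it was -0.64 (SE 1.50, limma adjusted p = 0.785), and it turned to 0.31 (adjusted p = 0.898) without Rosa26CreER number 5, the library at 670.2 RPKM.

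The 3 groups started with a tamoxifen-dependent Cre were compared with TATCre left out, over 9 libraries and 14549 transcripts. The moderated F test in limma passed for 7 members (2.57%), 6 short and 1 long, against 2.34% of all tested transcripts. The count was 21 (7.72%, against 2.37% of all tested) without Rosa26CreER number 4. Leaving out a Prx1CreERT2 or Bmi1IRESCreERT2 library leaves 1 in its group, so those counts are not given.

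Osteosarcomas started with Col1Cre and with Prx1Cre were compared at the members that passed a filter in osteosarcoma. Of the 272, 146 had at least 1 RPKM in at least 3 of the 7 libraries, 64 short and 82 long. The conditions capped the osteosarcoma median, and a member could pass this filter through 3 Col1Cre libraries alone. The unadjusted shares and the median difference below are therefore not free of the filter and the choice of members. None of the 146 passed an adjusted p of 0.05 in limma, as none of the 12623 tested transcripts did (0%), and the lowest adjusted p among members was 0.977. An unadjusted p under 0.05 in the same test was found for 16 members (10.96%), 14 of them higher in Col1Cre. Of all tested transcripts 570 had such a p (4.52%), and 521 of these were higher in Col1Cre. Among long members the share was 17.1%, against 4.43% of tested transcripts of 500 bases or more. Among short members it was 3.13%, against 4.83% of tested transcripts under 500 bases. The median log2 difference, Col1Cre minus Prx1Cre, was 0.69 over the 146 members and 0.23 over all tested transcripts. The mean log2(RPKM + 1) over all 106 long members was 1.75 to 2.93 in the 4 Col1Cre libraries and 1.49 to 1.92 in the 3 Prx1Cre libraries, and these ranges overlapped.

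The scaling of the libraries (median-ratio scaling divides each library by its median ratio to the mean library) was varied last. Over filtered transcripts the median of the log2 difference between class medians was 0.25 for clear cell sarcoma against the controls and 0.57 for synovial sarcoma against the controls, and median-ratio scaling took both to 0. Over the 272 members the corresponding medians were 3.31 and 3.40 with the deposited values and 3.12 and 2.92 with median-ratio scaling. Of the 272, 205 met the conditions with median-ratio scaling and 192 with quantile normalization.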

How the data were processed

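Per the labels' protocols, a Qiagen RNeasy kit plus DNase gave the RNA, and the Illumina TruSeq RNA kit the sequencing libraries. CASAVA 1.8.2, Novoalign 2.07.03 and the build mm9 are named in the submitters' processing notes, but a counting program is not. For the 32 mouse libraries the authors deposited 1 table of RPKM per UCSC transcript. A table of human tumours was not analysed here. Columns were matched to libraries by title, and groups came from the labels and the design text.

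Library depth, transcript lengths and reads were recovered from the steps between RPKM values, with whole numbers accepted within 0.02 reads, which succeeded for 99.6% of 16398 transcripts (those above 0 in 6 libraries or more). The method and the tests were tested on simulated data. The precision of a low RPKM is that of its reads. RPKM are not counts, so limma 3.58.1 (R 4.3.3, eBayes with trend, two-sided) was run on log2(RPKM + 1), a scale that understates the change of low transcripts, with Benjamini-Hochberg adjustment over all transcripts tested. The filters were at least 1 RPKM in 2 of 13 clear cell sarcomas, 2 of 9, or 3 of 7 osteosarcomas. No covariate was used. Where transcripts of a locus overlap, the way reads were assigned among them is unknown. The alternatives were other thresholds, pseudocounts, filters, scalings, libraries left out and averaged title numbers. Identifiers were printed for the 2 members of at least 100 bases with the highest separation and the 2 with the most negative TATCre minus Rosa26CreER difference among those that passed. Prepared lists of pathway and marker genes were not used, since symbols could not be matched. Members, lists and tests were chosen with earlier results of these data known. Part of the osteosarcoma genotype is not reported here.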

Additional observations from a re-analysis of the deposited data

Results flagged for a closer look

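Within groups of 4 to 10 libraries, 42 sets of values were searched for a library far from the others. Its gap to the nearest other one had to exceed Dixon's 95% limit, and 6 such values were found. That limit assumes normal values. Many RPKM here were listed at 0, and the Col1Cre sets lie within the osteosarcoma sets, so this count has no chance rate to be set against. In osteosarcoma, Col1Cre 31 had 203 of the 272 members above 0, and the other libraries had 106 to 146. Among the Rosa26CreER tumours, number 4 had 224 members above 0, and the other libraries had 258 to 268. The transcript uc007pav.2 had 5.83 RPKM in the osteosarcoma Col1Cre 27, against 0 to 1.47 in the other osteosarcomas. The transcript uc009ikv.2 had 14.9 RPKM in the osteosarcoma Prx1Cre 42, against 0 to 3.89 in the others. The transcript uc009uot.2 had 3.74 RPKM in the control Chest4 and was listed at 0 in the other controls. The transcript uc007mqv.1 had 670.2 RPKM in Rosa26CreER number 5, against 6.91 to 87.9 in the other Rosa26CreER tumours.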

How the results depend on the processing

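The set of 272 members became 456 with 2-fold in place of 3-fold over osteosarcoma and control medians. With conditions added after the data were seen, it became 106 at 500 bases or more and 156 with at least 20 reads in the lower tumour median. Under the 10 other alternatives it held 190 to 384 members, among them 244 with class means, of which 157 were shared with the 272, and it held 240 to 292 without any single library. In the F test over 4 Cre groups, no filter on low values gave 18 members (6.62%, against 8.11% of all tested). The TATCre libraries N123-Rleg and N179-Larm left out together gave 10 (3.68%, against 4.07%). Leaving out single libraries gave 10 (3.68%, against 5.50%) to 68 (25%, against 16.5%). For TATCre against Rosa26CreER, that pair left out gave 10 (3.68%, against 2.97% of all tested). Single libraries left out gave 14 (5.15%, against 4.84%) to 93 (34.2%, against 21.4%). Averaging the 2 libraries titled N123 gave 30, of which 11 were higher and 19 lower. For the 3 tamoxifen-dependent groups, single Rosa26CreER libraries left out gave 5 to 21. These were 1.84% to 7.72% of members, where 1.65% to 2.63% of all tested transcripts passed. The title number as a replicate block gave 1 member (0.368%, against 0.151% of all tested) in place of 7. Deviations of same-numbered libraries from their group means had correlations from -0.35 to 0.39 over 5 pairs. In a group of 2 libraries these deviations mirror each other, so the correlations cannot show whether the numbers pair the samples. For the osteosarcoma comparison, each of 4 alternatives and each library left out gave 0 members, where at most 0.132% of all tested transcripts passed. Without single libraries, the TATCre minus Rosa26CreER difference of uc007mqv.1 ran from -1.29 to 0.31, and it reversed to 0.31 without Rosa26CreER number 5. The causes of these changes were not tested, and some alternatives also left fewer transcripts or libraries. Only 50 of the 166 short members rested on 20 reads or more in the lower tumour median, against all 106 long members. The part of library depth in the results was not tested.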
